A study of Mus musculus with 4 samples.

Results

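The genes of the pyruvate dehydrogenase switch were followed in inguinal white adipose tissue of mice exposed to cold or treated with CL, a selective agonist of the adrenergic receptor Adrb3. They comprised 10 genes: the kinases *Pdk1*, *Pdk2*, *Pdk3* and *Pdk4*, the phosphatases *Pdp1* and *Pdp2*, and the complex subunits *Pdha1*, *Pdhb*, *Dlat* and *Pdhx*. They were chosen by name, out of 17196 protein-coding genes with at least 1 accessible chromatin peak on the gene body or within 2000 bases upstream, and together they held 41 such peaks. The mice were male C57BL/6 animals, 8 weeks of age, with no transgene or deletion named in the labels. All were kept at room temperature (22 °C) before the intervention. The paper states that CL was given at room temperature as well. The groups were untreated mice at day 0 (day0RT), mice kept at 6.5 °C for 1, 3 or 7 days (day1C, day3C, day7C) and mice given CL at 1 mg/kg for 1, 3 or 7 days (day1CL, day3CL, day7CL), with 3 mice in each of the 7 groups.

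The pyruvate dehydrogenase complex sits in the mitochondrial matrix and turns pyruvate into acetyl-CoA, which links glycolysis to the citric acid cycle and to fatty acid synthesis. Its kinases phosphorylate the catalytic subunit encoded by *Pdha1* and switch the complex off, and its phosphatases remove the phosphate and switch it on again. *Pdk4* is known as the kinase gene that rises in fasting and high fat oxidation in muscle, heart and adipose tissue, and it has long been studied as a target of PPAR, estrogen-related and FOXO transcription factors. In thermogenic fat the complex stands at the choice between burning glucose carbon and sparing it.

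Chromatin accessibility was measured by single-nucleus ATAC-seq, in which a transposase cuts open chromatin in single nuclei. The deposited matrix was binary: a count of 1 meant that a nucleus had reads in a peak, and 32552 nuclei by 189598 peaks were available. The 21 mice had between 1111 and 2021 nuclei and between 1340376 and 6916698 counts each. Nuclei of a mouse with the same annotation were pooled where at least 10 were present, and levels are given as CPM, the counts on a gene scaled to the pool's total over all genes. The sums are pools of nuclei, so a level change in a sum cannot be told apart from a change in the mix of nuclei within that annotation. White adipocyte sums held 23 to 847 nuclei and beige adipocyte sums 12 to 107, and 2 of the day1CL mice had too few beige nuclei for a sum. In day1CL the share of lymphocytes ran from 11.9% to 90.8% between mice, against 67.8% to 75.8% in day0RT. With the suffix of each nuclear barcode left out, 4218 barcodes occurred more than once, while every full barcode was unique. Marker genes describe the annotation, which the authors had made from accessibility in these same nuclei, so a label's own markers are no independent check. In white and beige adipocytes 5 adipocyte markers summed to 1460 and 1364 CPM against 65.2 CPM in B cells. The 4 beige markers, *Ucp1* among them, summed to 873 CPM in beige adipocytes against 443 CPM in white. The cluster annotated as VSMC went against its label, since 6 skeletal muscle markers summed to 1481 CPM there (1136 to 1890 CPM over 10 mice) and to between 75.1 and 249.6 CPM in the other cell types, whereas 5 smooth muscle markers summed to 151 CPM, below the 595 CPM of APC2. It is called the cluster annotated as VSMC below.

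*Pdk4* was the member whose level set cell types apart most widely. In mm10 it lies on the minus strand of chromosome 6, from base 5483351 to base 5496309, and 4 peaks fell on it. In white adipocytes of 21 mice *Pdk4* had 115 ± 19.6 CPM (SD), with a lowest mouse of 85.8, a median of 112.6 and a highest of 153.1 CPM. In beige adipocytes of 19 mice it had 204 ± 62.3 CPM, from 101.9 through a median of 192.3 to 330.9 CPM. In B cells of 21 mice it had 2.14 ± 2.26 CPM and the highest mouse reached 7.63 CPM, so that the B cells of every mouse stayed far under the adipocytes of every mouse. The cluster annotated as VSMC (171 ± 93.2 CPM, n = 10), APC2 (106 ± 47.6, n = 19), APC1 (87.6 ± 51.6, n = 20) and vascular endothelial cells, VEC (71.2 ± 90.5, n = 15) lay with the adipocytes, macrophages had 12.7 ± 16.4 CPM (n = 21), and dendritic and T cells had at most 4.53 CPM on average. The same held at the peak over the gene start, which had a count in 36.5% of 1069 beige and 24.0% of 5935 white adipocyte nuclei and in 0.142% of 11967 B cell nuclei. The median nucleus had 3087 counts in beige adipocytes, 2561 in white adipocytes and 974 in B cells.

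The other kinases followed different orders over the 12 cell types. *Pdk2*, the broadly expressed kinase gene, was found in every cell type, from 52.1 ± 28.4 CPM in dendritic cells (n = 17) to 151 ± 31.3 in beige adipocytes (n = 19) and 256 ± 124 in the cluster annotated as VSMC (n = 10). In that cluster 1 mouse stood at 554 CPM, and the next had 337 CPM. *Pdk1* was low throughout, at 39.1 ± 26.9 CPM in beige adipocytes, 24.1 ± 22.9 in APC1 and 20.7 ± 5.87 in white adipocytes, and between 3.56 and 14.2 CPM on average in the others. None of its 4 peaks lay over the annotated start. *Pdk3* had the opposite pattern: 10.1 ± 6.22 CPM in white and 12.6 ± 7.75 in beige adipocytes against 44.7 ± 11.5 in B cells and 46.4 ± 32.1 in dendritic cells. It was lowest in the cluster annotated as VSMC, at 3.08 ± 7.45 CPM, which rests on 2 counts. Per kilobase of the region over which peaks were taken, white adipocytes had 7.70 CPM for *Pdk4*, 7.33 for *Pdk2*, 0.636 for *Pdk1* and 0.145 for *Pdk3*, and beige adipocytes had 13.6, 8.85, 1.20 and 0.182 CPM in the same order. These values depend on region length. The regions were 15.0, 17.1, 32.6 and 69.6 kb long, but their peaks covered 2.96, 2.82, 2.12 and 1.69 kb. Before this scaling, *Pdk2* (125 CPM) lay above *Pdk4* (115 CPM) in white adipocytes.

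Among the phosphatases, *Pdp1* was lowest in adipocytes. It had 47.2 ± 10.9 CPM in white (n = 21) and 47.3 ± 16.4 CPM in beige adipocytes (n = 19), and 121 ± 17.8 CPM in B cells (n = 21) and 137 ± 62.2 in the cluster annotated as VSMC. *Pdp2* varied less, from 35.3 ± 37.8 CPM in VEC to 84.8 ± 43.2 in macrophages, with 82.6 ± 14.6 in white and 83.3 ± 33.9 in beige adipocytes. Of the complex subunits, *Dlat*, which carries the lipoyl groups of the transacetylase, was highest in adipocytes, with 119.5 ± 47.0 CPM in beige and 107 ± 14.6 in white adipocytes, 82.3 ± 58.4 in the cluster annotated as VSMC, and means of 30.8 to 49.9 CPM elsewhere. *Pdhb*, the beta subunit partner of *Pdha1*, was likewise highest in beige (44.1 ± 28.3 CPM) and white adipocytes (41.4 ± 10.5), but VEC lay close (38.2 ± 50.6). Its means elsewhere were 7.73 to 25.0 CPM. *Pdha1* (34.7 to 80.1 CPM) and *Pdhx* (56.8 to 123 CPM), whose product anchors the last enzyme of the complex, did not have their highest means in adipocytes. With only sums of at least 30 nuclei, however, *Pdhx* was highest in beige adipocytes. Neighbours in these orders were not separated. Of 110 pairs of neighbouring cell types, compared within mice by two-sided sign-flip permutation tests, 0 passed an adjusted p of 0.05. Unadjusted, 6 had a p under 0.05, the smallest being *Pdk2* in beige against white adipocytes (p = 0.00064 by permutation, adjusted p = 0.0704, higher in 16 of 19 mice). Pairs with the cluster annotated as VSMC had 6 to 10 mice, too few for the exact test to reach a p that small. For them, not passing says little. The pairs were also set by ordering the same means. Over the 12 cell types, log2 levels of *Pdk4* ran with those of *Pdk2* (Pearson r = 0.82) and against those of *Pdk3* (r = -0.73), with the mice, library depths and clustering shared by all points.

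**Figure D1:**
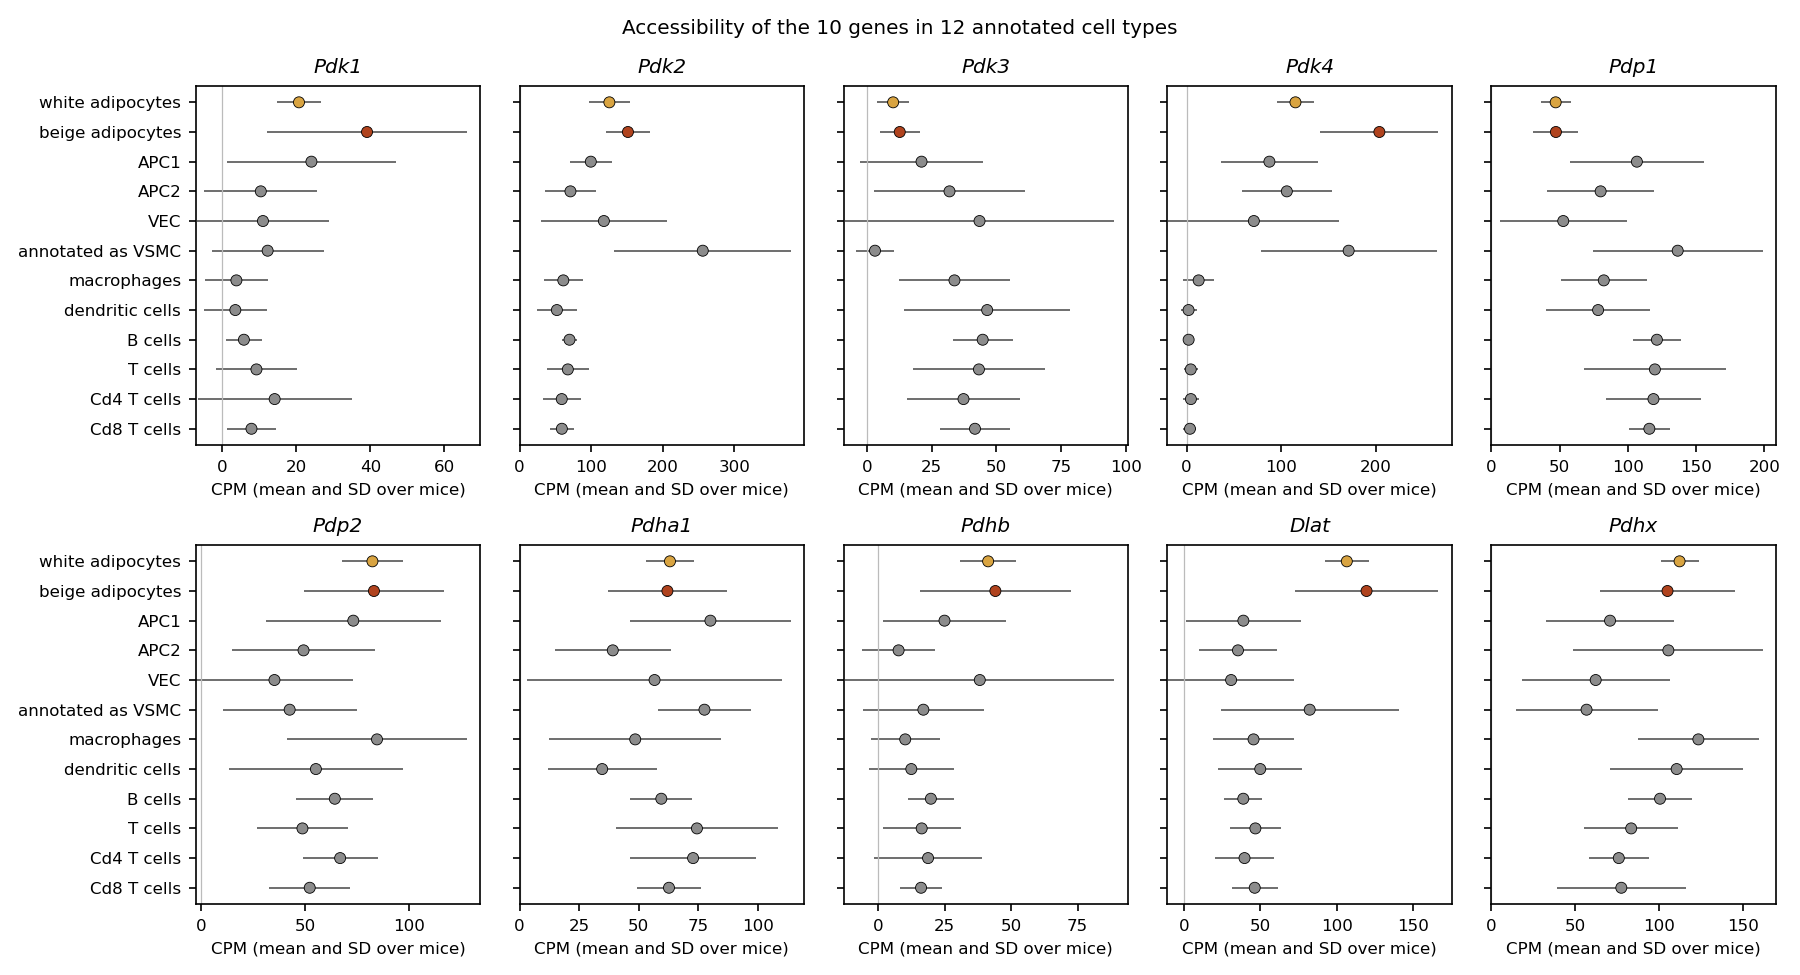
Mean accessibility of each of the 10 genes (CPM, x axis, separate scale per gene) in the 12 annotated cell types (y axis), with bars for the SD over mice and coloured points for white and beige adipocytes. Pdk4 stays at or under 12.7 CPM in all immune cell types and reaches 204 CPM in beige adipocytes, while Pdk3 and Pdp1 are lower in adipocytes than in B cells.

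Beige and white adipocytes were then compared by edgeR's quasi-likelihood test over all genes, with the group of the mouse in the model. The clusters had been made from the same peaks, so the test measures size and spread and is not independent of the clustering. All 3 of the kinase genes that could be tested were higher in beige adipocytes, and none of the phosphatase or subunit genes passed. Of 12770 genes 28.8% passed an adjusted p of 0.05, and 3 of the 9 members tested did so, a share near that background. *Pdk4* was 1.59-fold higher in beige adipocytes (log2 0.67, SE 0.09, edgeR adjusted p = 1.1e-10) and higher in 18 of 19 mice, although the ranges of the groups overlapped. *Pdk1*, from the medians of 34.5 and 21.5 CPM, was 1.48-fold higher (log2 0.57, SE 0.15, edgeR adjusted p = 0.00118) in 15 of 19 mice. *Pdk2*, from medians of 148.9 and 119.1 CPM, was 1.24-fold higher (log2 0.31, SE 0.08, edgeR adjusted p = 0.000603) in 16 of 19 mice. *Pdk3* fell under the minimum count and was not tested. The log2 differences of the other 6 members lay between -0.04 (*Pdhb*, SE 0.12) and 0.11 (*Dlat*, SE 0.09), with 0.04 for *Pdp1* (SE 0.11), 0.08 for *Pdp2* (SE 0.10), 0.04 for *Pdha1* (SE 0.10) and 0.05 for *Pdhx* (SE 0.08). The median over the 9 members was 0.08 and that over all genes 0.00.

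**Figure D2:**
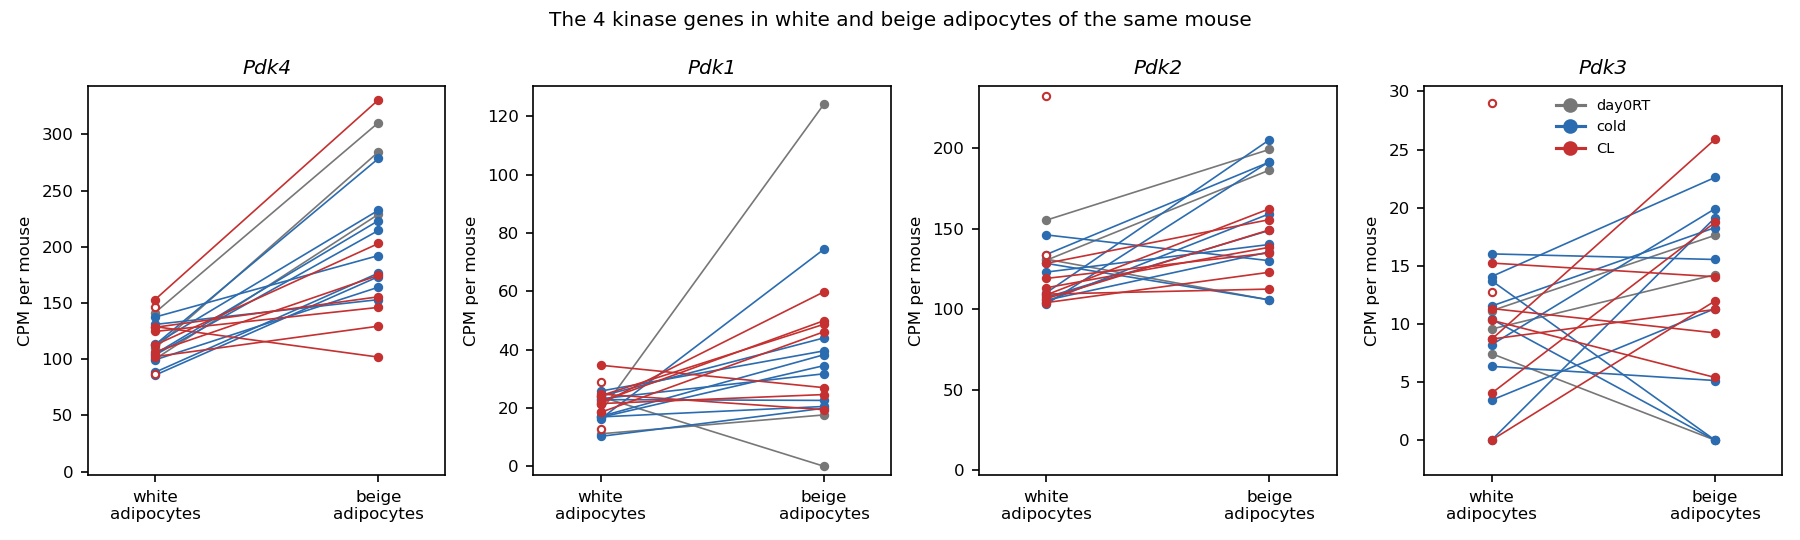
Accessibility of the 4 kinase genes (CPM per mouse, y axis) in white and beige adipocytes (x axis), with a line for each mouse and colours for day0RT, cold and CL mice. Open circles are the 2 mice without a beige sum; Pdk4 rises from white to beige in 18 of 19 mice.

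The contrast was also fitted apart for cold and CL mice. In cold mice 25.2% of 13140 genes passed, and 3 of 9 members did: *Pdk4* (log2 0.84, SE 0.12, edgeR adjusted p = 1.48e-09), *Pdk1* (0.77, SE 0.21, 0.00238) and *Pdk2* (0.36, SE 0.11, 0.0075). In CL mice 9.22% of genes passed, and *Pdk4* was the only member among them (log2 0.42, SE 0.12, edgeR adjusted p = 0.0138), while under DESeq2 no member passed there (smallest adjusted p = 0.0578). *Pdk1* had a log2 difference of 0.39 (SE 0.21) and *Pdk2* of 0.29 (SE 0.11) in CL mice. The difference between both contrasts, CL minus cold, passed for 1.62% of genes and for 0 of 9 members. At an unadjusted p under 0.05 there were 1575 of 13140 genes and 1 member. That member was *Pdk4*, at -0.42 (SE 0.16, edgeR adjusted p = 0.229). Without mouse 3 of day7CL it was -0.56 (adjusted p = 0.0357), and the highest *Pdk4* level of any beige sum, 330.9 CPM, belonged to that mouse. With each mouse left out in turn, the difference ran from -0.56 to -0.27 (adjusted p up to 0.591). Under the alternative settings it ran from -0.52 to -0.10 (adjusted p up to 0.985).

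Peak by peak, the excess in beige adipocytes at *Pdk4* lay both inside the gene and beside it. Of 24854 peaks tested, 26.9% passed between beige and white adipocytes, and 5 of the 18 member peaks that could be tested did so, all higher in beige adipocytes. Peak levels are CPM of all peak counts. At *Pdk4* the peak over the start (chr6:5495844-5497406, with the start, coding exon and untranslated bases) had 101.3 ± 31.1 CPM in beige and 61.9 ± 11.9 in white adipocytes (log2 0.45, SE 0.08, edgeR adjusted p = 3.32e-06). Without the filter on low counts the median of all peaks fell to -0.19 and this value to 0.13 (adjusted p = 0.311). An intronic peak, chr6:5486258-5486551, rose further, from 4.54 ± 2.89 to 19.9 ± 13.5 CPM (log2 1.22, SE 0.20, edgeR adjusted p = 9.26e-08), and a peak in the untranslated end of the gene, chr6:5484136-5484385, from 4.94 ± 4.75 to 15.7 ± 13.1 CPM (log2 1.21, SE 0.21, edgeR adjusted p = 4.57e-07). The fourth peak, chr6:5484555-5485403, was at 26.0 ± 13.0 and 19.3 ± 6.40 CPM (log2 0.18, SE 0.14, edgeR adjusted p = 0.386).

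Around the gene, 10 further peaks had *Pdk4* as the nearest protein-coding gene, a set added after the member peaks had been seen. Of these, 7 could be tested and 5 passed, all higher in beige adipocytes, where 26.9% of all 24854 peaks tested passed. They surround a gene already called in the same contrast, so they are no independent support for it. The peak with the largest difference lay 2652 bases before the start (chr6:5498819-5499102), with 25.4 ± 15.9 CPM in beige and 5.29 ± 3.10 in white adipocytes (log2 1.61, SE 0.18, edgeR adjusted p = 1.97e-15). In 18 of 19 mice the beige sum exceeded the white sum there. Past the end of the gene, 14877 bases after the start, chr6:5481283-5481581 rose from 2.72 to 18.5 CPM (log2 1.57, SE 0.21). Beside it, 14150 bases after the start, chr6:5482021-5482297 rose from 2.53 to 15.1 CPM and was higher in 16 of 19 mice. Farther upstream, at 11866 and 13505 bases before the start, the differences were 0.87 (SE 0.14) and 0.56 (SE 0.11). The remaining 2, at 23406 and 25252 bases after the start, were at -0.22 and -0.26 and did not pass.

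**Figure D3:**
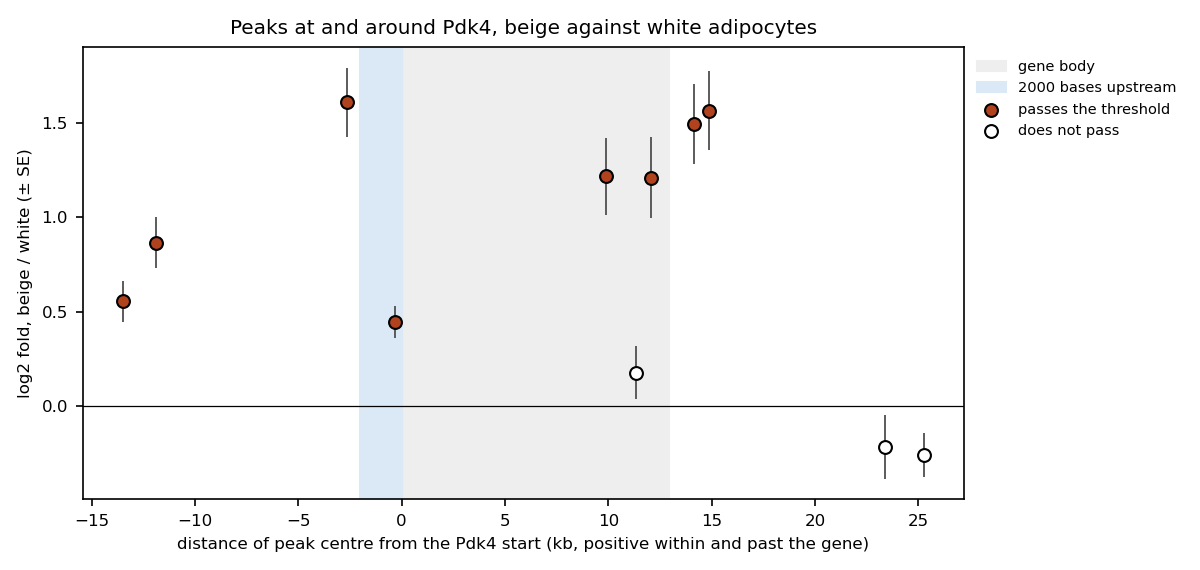
Log2 fold of beige over white adipocytes with its SE (y axis) for the 11 tested peaks whose nearest gene is Pdk4, by distance of the peak centre from the gene start in kb (x axis), with filled points for adjusted p under 0.05. The smallest of the 8 filled values is 0.45, at the start, and the largest 1.61, at 2652 bases before it.

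The sequences of the 2 peaks beside *Pdk4* with the widest differences, of its intronic peak and of the stretch before its start are given in mm10 on the strand of the gene, 5′ to 3′. Capitals mark matches to GTAAACA (the core that FOXO factors bind), TNAAGGTCA (the estrogen-related receptor element) or AGGTCA (the nuclear receptor core) on either strand, so that TGACCT is AGGTCA read on the other strand. The stretch before the start was chosen because it holds the GTAAACA match, and TNAAGGTCA and AGGTCA were added after the sequences had been seen.

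Pdk4 before the start, chr6:5496360-5496659: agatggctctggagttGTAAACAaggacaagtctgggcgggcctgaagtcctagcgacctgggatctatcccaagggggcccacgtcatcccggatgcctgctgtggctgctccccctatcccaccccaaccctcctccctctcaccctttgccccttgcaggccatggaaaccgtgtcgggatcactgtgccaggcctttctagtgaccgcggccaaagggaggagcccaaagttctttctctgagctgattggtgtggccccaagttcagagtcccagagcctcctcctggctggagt
Pdk4 upstream peak, chr6:5498819-5499102: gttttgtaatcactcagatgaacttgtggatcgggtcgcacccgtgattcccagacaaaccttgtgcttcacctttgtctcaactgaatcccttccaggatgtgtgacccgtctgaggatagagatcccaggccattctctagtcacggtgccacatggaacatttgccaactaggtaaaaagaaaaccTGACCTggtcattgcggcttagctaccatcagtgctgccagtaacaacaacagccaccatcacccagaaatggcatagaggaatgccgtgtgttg
Pdk4 intronic peak, chr6:5486258-5486551: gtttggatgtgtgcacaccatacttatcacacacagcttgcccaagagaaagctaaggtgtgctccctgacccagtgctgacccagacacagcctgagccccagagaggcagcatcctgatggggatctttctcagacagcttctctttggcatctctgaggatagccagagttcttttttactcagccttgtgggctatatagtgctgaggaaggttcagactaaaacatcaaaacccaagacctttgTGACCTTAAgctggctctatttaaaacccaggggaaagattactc
Pdk4 peak past the gene, chr6:5481283-5481581: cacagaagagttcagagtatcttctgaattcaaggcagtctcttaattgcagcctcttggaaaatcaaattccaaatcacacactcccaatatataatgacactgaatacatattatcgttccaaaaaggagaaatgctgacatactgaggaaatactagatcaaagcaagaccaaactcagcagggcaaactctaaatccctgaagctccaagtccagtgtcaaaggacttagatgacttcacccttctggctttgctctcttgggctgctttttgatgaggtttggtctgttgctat

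In windows of 501 bases around the peak centres, AGGTCA was present in 31.1% of all 189598 peaks, in 13 of the 41 member peaks and in 4 of the 14 peaks nearest to *Pdk4*. TNAAGGTCA was in 3.19% of all peaks, in 3 of the 41 member peaks and in 1 of the 14, and its stricter form TCAAGGTCA, contained in it, in 1.14% of all peaks and 1 member peak, at *Pdhx*. GTAAACA was in 7.22% of all peaks, 2 member peaks and 2 of the 14. The direct repeat of AGGTCA with 1 base between (DR1), AAAGGTCA (NR4A), TTGCGCAA (C/EBP) and TTGGC with GCCAA 5 bases on (NFI) were in 0.146%, 3.81%, 0.179% and 0.101% of all peaks and in 0 of the 41. The glucocorticoid receptor palindrome, GNACA and TGTNC with 3 bases between (NR3C), and TGACGTCA (cyclic AMP element) were in 1.46% and 0.695% of all peaks and in 1 member window each, both at *Dlat*. A window can reach past a short peak and leaves out the ends of a long one, and between the ends of the 41 member peaks themselves the matches differed. There TCAAGGTCA was found once, at *Pdk4* (chr6:5484612-5484620, in the peak chr6:5484555-5485403 that did not pass), and TNAAGGTCA in 2 peaks, both at *Pdk4*. AGGTCA was inside 16 member peaks, GTAAACA inside 3 (*Pdhx*, *Pdk2* and *Pdk4*), AAAGGTCA inside 3 (*Pdha1*, *Pdhx* and *Pdk2*), the NR3C palindrome inside 1 at *Dlat* and TGACGTCA inside 1 at *Pdp1*. The match is to letters, and binding was not measured.

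At *Pdk2* and *Pdk1* an intronic peak passed in each gene. Only this 1 of the 4 *Pdk1* peaks and none of the 3 *Pdk3* peaks could be tested. *Pdk2* (chromosome 11, 95026258 to 95041354, minus strand) had 4 peaks, and the intronic chr11:95040280-95040922 rose from 18.6 ± 11.7 CPM in white to 29.5 ± 15.2 in beige adipocytes (log2 0.68, SE 0.14, edgeR adjusted p = 1.71e-05), while the peak over its start did not pass (log2 0.10, SE 0.11). *Pdk1* (chromosome 2, 71873224 to 71903858, plus strand) had an intronic peak, chr2:71892657-71893458, that rose from 5.50 ± 3.16 to 14.6 ± 8.45 CPM (log2 0.93, SE 0.19, edgeR adjusted p = 2.6e-05). The centres of these peaks each hold 1 match to AGGTCA, in capitals, and are shown as the kinase stretches that differ apart from *Pdk4*, each on the strand of its gene.

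Pdk2 intron, chr11:95040451-95040750: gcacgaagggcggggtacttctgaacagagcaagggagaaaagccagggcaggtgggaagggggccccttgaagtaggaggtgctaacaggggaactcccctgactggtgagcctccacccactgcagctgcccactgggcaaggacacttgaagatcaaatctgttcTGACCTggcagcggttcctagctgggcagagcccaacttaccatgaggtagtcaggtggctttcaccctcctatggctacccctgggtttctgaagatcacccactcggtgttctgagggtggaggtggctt
Pdk1 intron, chr2:71892908-71893207: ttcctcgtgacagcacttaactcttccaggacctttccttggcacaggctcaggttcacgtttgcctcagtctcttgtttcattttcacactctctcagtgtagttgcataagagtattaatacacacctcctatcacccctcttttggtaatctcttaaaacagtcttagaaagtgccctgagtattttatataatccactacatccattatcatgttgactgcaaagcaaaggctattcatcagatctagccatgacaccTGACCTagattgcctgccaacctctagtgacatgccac

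None of the start peaks of the phosphatase and subunit genes passed between both adipocyte types. Their log2 differences were -0.09 for *Pdp1* (chr4:11965627-11967013), 0.04 for *Pdp2* (chr8:104590962-104592824), -0.05 for *Pdha1* (chrX:160137266-160139039), 0.03 for *Dlat* (chr9:50658440-50660138) and 0.01 for *Pdhx* (chr2:103073054-103074084), with SE of 0.10 to 0.11. The *Pdhx* peak also covers the start of *Apip* on the other strand, and without strand in the assay the signal cannot be assigned to either. The regions of *Pdp1*, *Pdk2* and *Pdha1* overlap *1700123M08Rik*, *Gm11513* and *Map3k15* on the other strand. No counted *Pdha1* peak fell on the region of *Map3k15*. For *1700123M08Rik* and *Gm11513*, which are not protein-coding, peak overlap was not checked. *Pdhb* (chromosome 14, 8165996 to 8173025) had no peak over its start, and its intronic and upstream peaks had differences of -0.19 and -0.07. Without the filter on low counts, where the median of all peaks was -0.19, the start peaks of *Pdp1* (-0.39, edgeR adjusted p = 0.0147) and *Pdha1* (-0.35, 0.0174) and the intronic *Pdhb* peak (-0.44, 0.0497) were called lower in beige adipocytes.

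To follow the members through the treatments, white and beige nuclei were summed per mouse and each treated group was compared with day0RT in 1 edgeR fit of 21 mice and 14429 genes. All 10 members were tested, and all of these comparisons share the day0RT mice. The beige share of the adipocyte nuclei moved with the groups, from 7.69% to 12.2% in day0RT to 26.1% to 32.5% in day7C and 14.5% to 23.5% in day7CL, and its part in the differences below was measured only by fitting white and beige nuclei apart. In cold, 0.34%, 1.67% and 5.09% of genes passed on days 1, 3 and 7, and 0, 0 and 1 members did. In CL, 2.61%, 4.77% and 7.81% of genes passed, and 0, 0 and 1 members did. At an unadjusted p under 0.05 there were 2, 1 and 5 members in cold and 0, 3 and 4 in CL. Of all 14429 genes, 1437, 2072 and 2707 were at that level in cold and 2189, 2715 and 3232 in CL.

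*Pdk4*, despite its excess in beige adipocytes, stayed close to its day0RT level. The 3 day0RT mice had 134.9, 151.0 and 108.6 CPM, the day7C mice 158.2, 118.3 and 112.7 CPM, and the day7CL mice 107.4, 117.5 and 196.5 CPM. The ranges of these groups overlapped, and mouse 3 of day7CL stood above all other mice. Its log2 differences from day0RT ran from -0.21 (day3C, SE 0.15) to 0.05 (day7CL, SE 0.15), and none passed.

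*Pdk1* was the only kinase gene that passed against day0RT, on day 7 of CL, and as 1 of 10 members where 7.81% of all genes passed it is a share near that background. It had 20.4, 24.6 and 11.5 CPM in day0RT, 31.0, 18.0 and 30.2 CPM in day7C and 33.2, 23.9 and 28.9 CPM in day7CL, where the lowest treated mouse fell just under the highest untreated mouse. On day 7 of CL it was 1.77-fold higher (log2 0.82, SE 0.27, edgeR adjusted p = 0.0418), and on day 7 of cold the log2 difference was 0.68 (SE 0.29, edgeR adjusted p = 0.175). The call on day 7 of CL was lost without mouse 1 of day0RT (log2 0.96, adjusted p = 0.065), mouse 3 of day0RT (0.45, 0.497) or mouse 1 of day7CL (0.60, 0.402), with the mouse number as a replicate block (0.74, 0.0903) and with beige nuclei alone (0.41, 0.869). With white nuclei alone *Pdk1* still passed, just under the threshold (edgeR adjusted p = 0.0494). The intronic peak printed above, at 6.65, 0 and 2.74 CPM in day0RT, had 11.8, 5.89 and 10.6 CPM in day7C and 9.58, 8.07 and 8.29 CPM in day7CL, where the groups did not overlap, but it did not pass on either day. This peak was sparse, with 285 counts in all nuclei, and the share of all peaks separated in this way was not counted. *Pdk2* went the other way, with log2 differences of -0.29 (SE 0.13, edgeR adjusted p = 0.17) on day 7 of CL and -0.05 (SE 0.13) on day 7 of cold, and *Pdk3* moved by less than its SE on day 7 of either treatment.

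Of the phosphatases, *Pdp2* was 1.50-fold higher on day 7 of cold (log2 0.58, SE 0.18, edgeR adjusted p = 0.034). The day0RT mice had 59.3, 87.8 and 55.5 CPM and the day7C mice 104.8, 101.9 and 82.5 CPM, so that the groups overlapped by 1 mouse on each side. The call was lost without mouse 1 (0.54, adjusted p = 0.122) or mouse 3 of day0RT (0.42, 0.326), or mouse 1 (0.50, 0.157) or mouse 2 of day7C (0.54, 0.0882), with white (0.45, 0.232) or beige nuclei alone (1.40, 0.147), with peaks near the start alone (0.60, 0.0911) and under DESeq2 (0.58, 0.0998). On the other days *Pdp2* lay 0.29 to 0.45 above day0RT on the log2 scale without passing. *Pdp1* had log2 differences from day0RT of -0.16 to -0.44, with the widest value on day 7 of CL (-0.44, SE 0.18, edgeR adjusted p = 0.118), and none of these passed.

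Of the complex subunits, *Pdhb* came closest to the threshold. It had 28.6, 14.1 and 38.1 CPM in day0RT and 50.0, 49.9 and 36.6 CPM in day7CL (log2 0.61, SE 0.21, edgeR adjusted p = 0.0579), and on day 3 of cold 56.1, 44.1 and 34.6 CPM (0.66, SE 0.21, 0.0791). It passed on day 7 of CL when, for every gene, only peaks within 2000 bases of the start were counted (0.75, adjusted p = 0.0295). All 3 *Pdhb* peaks lie within that distance, so its own peaks were the same as in the main fit. That call is therefore no result about *Pdhb* peaks near the start. *Pdhb* also passed on day 7 of CL without mouse 3 of day0RT (0.99, 0.0441), mouse 1 of day3C (0.60, 0.0483) or mouse 3 of day7CL (0.66, 0.0333). On day 3 of cold it passed without mouse 3 of day3C (0.75, 0.0349). *Dlat* had 110.4, 84.3 and 85.5 CPM in day0RT and 153.1, 125.0 and 101.3 CPM in day3CL (log2 0.38, SE 0.14, edgeR adjusted p = 0.119). Without mouse 3 of day3CL it was 0.52 (adjusted p = 0.0308). With each mouse left out in turn, it ran from 0.26 to 0.52 (adjusted p up to 0.512). *Pdhx* was at 0.32 (SE 0.14) and *Dlat* at 0.33 (SE 0.15) on day 7 of cold, and *Pdha1* at 0.03 (SE 0.17).

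**Figure D4:**
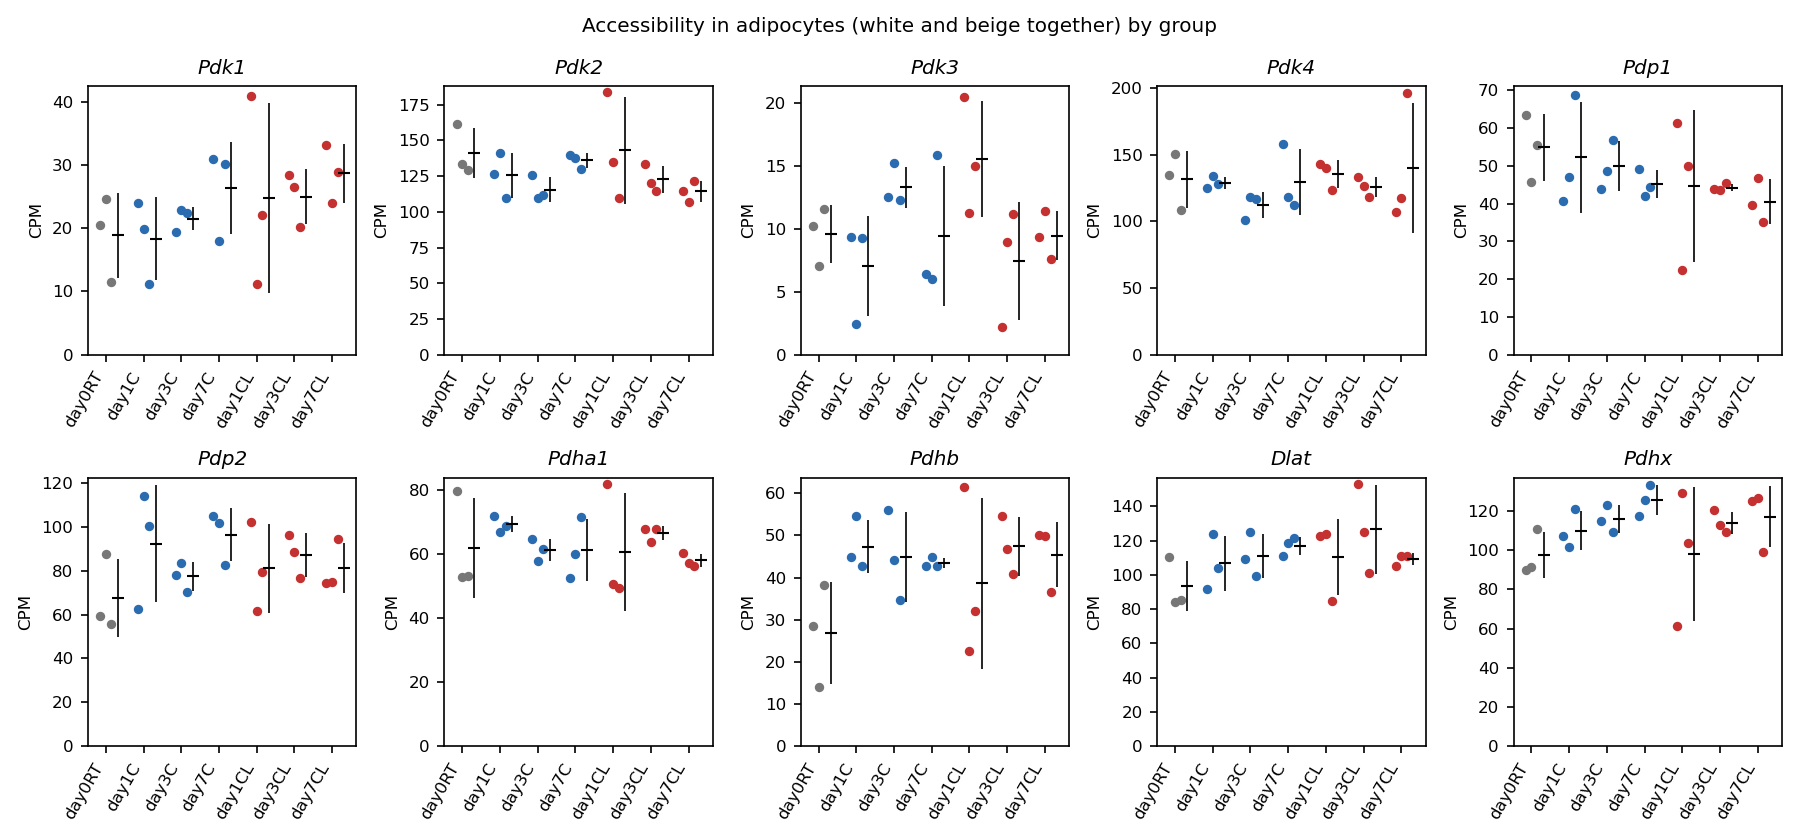
Accessibility of each gene (CPM, y axis) in adipocyte sums of the 7 groups (x axis), with a point per mouse, and a black dash and bar for the mean and SD of 3 mice. Pdp2 is highest in day7C and Pdk1 in day7CL on average, and Pdk4 shows 1 day7CL mouse at 196.5 CPM above all others.

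Of the member peaks, 25 could be tested among 47835 peaks in adipocytes over the late days. On day 7 of cold 3.1% of peaks passed and 0 member peaks, with 6 at an unadjusted p under 0.05. On day 7 of CL 4.13% passed and 0 member peaks, with 7 at that level. Of the 47835 peaks, 8168 in cold and 9195 in CL were at that level on day 7. On day 3 of CL 3.41% passed and 1 member peak did, the upstream *Dlat* peak chr9:50660394-50660834, which lies 834 bases before the start. It had 18.3, 11.2 and 9.13 CPM in day0RT and 22.6, 24.4 and 21.1 CPM in day3CL, with no overlap (log2 0.88, SE 0.27, edgeR adjusted p = 0.0384). The share of all peaks without overlap was not counted. The call was lost without mouse 2 (0.85, adjusted p = 0.108) or mouse 3 of day0RT (0.57, 0.462), mouse 2 of day7C (0.87, 0.0508), or mouse 1 (0.89, 0.0506) or mouse 2 of day3CL (0.76, 0.243). DESeq2 gave an adjusted p of 0.351.

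CL and cold were also set against each other on the same day. On days 1, 3 and 7, 0.922%, 1.46% and 0.111% of genes passed, and 0 of 10 members on each day, with 2, 0 and 1 members at an unadjusted p under 0.05. Of all 14429 genes, 1843, 1741 and 1226 were at that level. *Pdk4* was at -0.02 (SE 0.18), 0.21 (SE 0.13) and 0.00 (SE 0.29, unreliable for so small a difference) on the log2 scale.

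Within beige nuclei alone, a comparison added after the data had been seen, *Pdk4* had its highest group mean in day0RT, but no difference passed and the highest single mouse was in day7CL. Its levels were 284.5, 310.6 and 229.0 CPM in day0RT, 232.6, 153.1 and 278.6 CPM in day1C, 176.7, 214.6 and 223.4 CPM in day3C, 192.3, 164.1 and 173.5 CPM in day7C, 155.6, 146.2 and 203.0 CPM in day3CL and 129.4, 174.7 and 330.9 CPM in day7CL, and the only day1CL library had 101.9 CPM. The day3C, day7C and day3CL mice lay under all day0RT mice, and those of day1C and day7CL overlapped them. The share of all genes separated in this way was not counted. The day0RT mice had 156 to 285 adipocyte nuclei, of which 7.69% to 12.2% were beige, so their beige sums were small. The log2 values were -0.20 (SE 0.32, edgeR adjusted p = 0.921) in day1C, -0.40 (SE 0.28, 0.635) in day3C, -0.48 (SE 0.27, edgeR adjusted p = 0.506) in day7C, -0.61 (SE 0.29, 0.505) in day3CL, -0.46 (SE 0.27, 0.554) in day7CL and -1.22 (SE 0.35, 0.11) in day1CL.

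B cells, the cell type with the most nuclei, gave the same members under the same treatments in cells that are no adipocytes. Of 11502 genes 0.113% passed between the cold groups and day0RT and 1.31% between the CL groups and day0RT. *Pdk1* and *Pdk4* were too low to test, and 0 of the other 8 members passed by edgeR in either comparison, with 0 at an unadjusted p under 0.05. Of all 11502 genes, 1068 in cold and 1694 in CL were at that level. The members' log2 differences lay between -0.11 (*Dlat*) and 0.30 (*Pdhb*, SE 0.25) in cold and between -0.13 (*Pdk3*) and 0.40 (*Pdhb*, SE 0.26) in CL.

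The pathway around the complex was described with a list of 23 genes of pyruvate, lactate and acetyl-CoA handling. This list and the list of regulator genes below were chosen with earlier results of these data known. Their counts are therefore no independent test. Between beige and white adipocytes 7 were higher and 5 lower, where 28.8% of all genes passed, with a list median of 0.18 against 0.00 over all genes. *Acss1*, the mitochondrial acetyl-CoA synthetase, was higher in beige adipocytes by 1.22 (log2, SE 0.09, edgeR adjusted p = 7.33e-23), the citrate synthase gene *Cs* by 0.49 (SE 0.07) and the pyruvate kinase gene *Pkm* by 0.47 (SE 0.08), and the monocarboxylate transporter gene *Slc16a7* was at -0.41 (SE 0.07). Against day0RT, 7 of the 23 rose on day 7 of cold, 7 on day 3 of CL and 5 on day 7 of CL, and 0 fell, where 5.09%, 4.77% and 7.81% of all genes passed in either direction. The list medians were 0.20, 0.15 and -0.01 in that order, against -0.01 over all genes each time. *Acly*, the ATP citrate lyase that turns citrate into cytosolic acetyl-CoA, rose by 1.11 (SE 0.19) on day 7 of cold, 1.49 (SE 0.18) on day 3 of CL and 0.93 (SE 0.19) on day 7 of CL. *Me1*, the cytosolic malic enzyme, rose by 0.83 (SE 0.14) on day 7 of cold, *Acss2* by 1.08 (SE 0.15) on day 3 of CL, and *Cs* by 0.59, 0.52 and 0.49 (SE 0.12 each) on the days named. In the CL minus cold contrast, where 1.62% of genes passed, 1 of the 23 did, *Acss1* (-0.61, SE 0.17, edgeR adjusted p = 0.0296).

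A list of 18 genes for factors known to control *Pdk* genes had 7 higher and 2 lower between beige and white adipocytes, beside the 28.8% of all genes, with a list median of 0.18. *Ppara* (log2 0.79, SE 0.07), *Esrrg* (0.66, SE 0.06), *Ppargc1b* (0.65, SE 0.06) and *Ppargc1a* (0.62, SE 0.08), nuclear receptors and coactivators of mitochondrial and fatty acid genes, were among those higher. In the CL minus cold contrast 2 of the 18 passed, beside 1.62% of all genes, both negative: *Ppargc1b* (-0.46, SE 0.11, edgeR adjusted p = 0.0111) and *Esrrb* (-0.64, SE 0.19, 0.0469). Against day0RT, 1 rose on day 7 of cold (*Esrrb*, 0.77, SE 0.17), and 4 on day 7 of CL (*Mef2c*, *Pparg*, *Ppargc1a* and the glucocorticoid receptor gene *Nr3c1*), and 0 fell, beside 5.09% and 7.81% of all genes. In B cells 0 genes of either list passed by edgeR.

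Among genes with at least 20 CPM in a cell type, those whose log2 level ran most like that of *Pdk4* over the 12 cell types were *Hacd1* (Pearson r = 0.99), *Ptprg* (0.98), *Klf15* (0.98), *Dok5* (0.98) and *Mfrp* (0.98). Over the 21 adipocyte sums the closest were *Ptpa* (r = 0.66), *Carhsp1* (0.65), *Mpdz* (0.65), *Entpd5* (0.65) and *Itgb3bp* (0.63). The points share libraries and depth, and the correlations are descriptions.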

How the data were processed

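Inguinal adipose tissue of 21 mice was profiled by single-nucleus ATAC-seq on 4 sequencing lanes that each hold all mice. The submitters' processing notes name Bowtie2, SAMtools, MACS2 and Signac and the build mm10; the study's reporting summary gives versions, which are not repeated here, and describes 3 batches run independently, with no map from batch to mouse in the sources used here. The deposited matrix holds counts, which the authors had made binary per nucleus and peak: all 65588856 stored values above 0 are 1. Mouse, group and cell type came from the authors' table of nuclei.

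Peaks were joined to genes by overlap with the gene body and 2000 bases upstream (GENCODE models, GRCm38), and counts were summed per mouse and cell type (at least 10 nuclei). edgeR 4.0.16 (R 4.3.3) was run with filterByExpr (minimum count 10), TMM factors and the quasi-likelihood test, with Benjamini-Hochberg adjustment over all features tested and a threshold of 0.05. Each SE printed for edgeR is the absolute log2 difference divided by the square root of its F statistic, and is unreliable for very small differences. DESeq2 1.42.0 was an alternative. The fits were run on simulated counts with a single fixed dispersion, no mouse effects and changes in well-covered genes only. This does not test the calls on sparse members. Neighbouring cell types were compared by sign-flip permutation (exact up to 10 mice, otherwise 100000 draws). The p-values of the group comparisons measure the spread between mice. In the main beige against white fit, the white and beige sums of a mouse entered as separate libraries. The sign-flip tests used differences within mice. Promoter sequences of RefSeq (GRCm38.p6) matched 9 of 10 members and were not printed; printed sequences were read from the GRCm38 genome. Some sequence is not reported here.

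White and beige sums come from the same mice, and a fit with the mouse as a block was an alternative; residuals of the sums of a mouse correlated at a median of 0.04 over 18 pairs (0.0028 to 0.16). Every member was named in every comparison, with peaks past the threshold and start peaks, and for likeness the 5 genes with the highest correlation to *Pdk4*. The members and lists were chosen with earlier results of these data known.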

Additional observations from a re-analysis of the deposited data

Results flagged for a closer look

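Within the cluster annotated as VSMC, the only cell type with 4 to 10 mice, 10 gene levels were checked for a mouse far from the others. The critical value is meant to mark about 1 in 20 groups by chance, a rate that was not tested for sparse counts like these. *Pdk2* reached 554 CPM in 1 mouse, with 337 CPM in the next, a gap of 0.508 of the range against a critical value of 0.466. *Pdk3* reached 23.1 CPM in 1 mouse, with 7.62 CPM in the next and 8 of 10 mice at 0, a gap of 0.671 of the range. Its 2 counts in that cluster came from 2 mice.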

How the results depend on the processing

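Of 93 counts of members or member peaks under alternatives other than leaving out a mouse, 83 stayed within 1.5 times, and 910 of 924 single values kept their side of the threshold, with 0 reversed calls. The 3 calls between beige and white adipocytes stood under DESeq2, no filter, deeper nuclei, larger sums, the mouse as a replicate block (3 members) and without each mouse (3 to 3), and counting only peaks near the start left out *Pdk1*, which has none. Calls of day7C against day0RT went to 0 under DESeq2, with start peaks alone, and with white or beige nuclei alone, and to 0 to 1 without a mouse. Calls of day7CL against day0RT went to 0 with beige nuclei alone and with the mouse number as a replicate block (*Pdk1* 0.74, adjusted p = 0.0903), DESeq2 gave *Pdk1* no adjusted p, and without a mouse there were 0 to 2. Without a mouse, calls ran from 0 to 1 for day3C, day3CL and the CL minus cold difference. Member peaks between beige and white adipocytes rose to 8 with no filter, where the median of all peaks was -0.19 and the start peaks of *Pdp1* and *Pdha1* and the intronic peak of *Pdhb* were called lower, and were 4 to 5 without a mouse. Member peaks of day3CL fell to 0 under DESeq2, with no filter (median 0.15) and with white nuclei alone, and were 0 to 2 without a mouse. The cause was not tested. Whether the mouse numbers mark a batch shared across groups could not be told. Adipocyte sums of the same number correlated at a median of 0.00 over 63 pairs, and 7 of 21 correlated best with their own number. By this measure even white and beige sums of the same mouse had a median of 0.04 over 18 pairs. The block changed no other call. The cell type with the highest level changed for *Pdk3* and *Pdha1* with CPM over all peak counts, and for *Pdp1*, *Pdp2*, *Pdha1* and *Pdhx* with at least 30 nuclei. In that last setting *Pdp2* and *Pdhx* were highest in beige adipocytes. Depth limits *Pdk1* and *Pdk3*, which had 126 and 45 counts in all beige sums.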
